A study of Mus musculus with 32 samples.

Results

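The 10 genes described here encode the cholinergic machinery, the identity factors and the axonal filaments of spinal motor neurons. *Chat*, *Slc18a3*, *Slc5a7* and *Ache* act in acetylcholine synthesis, packaging, choline uptake and breakdown. *Isl1* and *Mnx1* encode homeodomain transcription factors of motor neuron identity. *Prph*, *Nefl*, *Nefm* and *Nefh* encode intermediate filament proteins of axons. The genes were chosen by symbol, and each was matched to 1 of the 74021 Ensembl genes in the table of lumbar spinal cord. All 10 were among the 17702 genes with enough counts for the test.

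RNA was sequenced from lumbar spinal cord at P140 (140 days of age), with 3 libraries of SOD1G93A/LAG-3+/+ animals and 3 of SOD1G93A/LAG-3-/- animals. All 6 libraries came from mice with the human mutant SOD1G93A transgene, which models amyotrophic lateral sclerosis (ALS), and the LAG-3-/- mice had in addition a germline disruption of *Lag3*, the gene of an inhibitory immune checkpoint receptor. The transgene (B6.Cg-Tg(SOD1*G93A)1Gur/J) is driven by the human SOD1 promoter and so is expressed in many cell types, and the *Lag3* null allele (B6.129S6(Cg)-Lag3tm1Doi/J) was brought in by crossing. Cord of mice without the transgene was not analysed here, so each value compares LAG-3 genotypes within diseased cord. The comparison asks how motor neuron and axon transcripts stood in late-stage cord when LAG-3 was missing from every cell of the animal.

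Motor neurons of the ventral horn make acetylcholine with choline acetyltransferase (*Chat*), load it into vesicles through the vesicular acetylcholine transporter (*Slc18a3*) and take choline back up through the transporter encoded by *Slc5a7*. Their long axons are filled with neurofilaments, which are built from a light (*Nefl*), a medium (*Nefm*) and a heavy (*Nefh*) subunit, and with peripherin (*Prph*). Motor neurons are the cells lost in ALS and are few among the cells of the cord. Neurofilament transcripts are also made by other projection neurons, and *Isl1* and *Prph* also by sensory neurons. In whole tissue, fewer cells of a type and less RNA per cell cannot be told apart.

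The libraries held 19429873 to 26994340 estimated counts. *Lag3*, the deleted gene, had 1010 to 1992 counts in LAG-3+/+ libraries and 100 to 142 in LAG-3-/- libraries, so the labels and this gene went together. Hox genes of lumbar and sacral cord (6 genes) summed to 106 to 137 CPM (counts scaled to a common library size) in all libraries. *Xist*, a transcript of female cells, was present in all 3 LAG-3+/+ libraries, of which 2 are listed as male, and in LAG-3-/- replicate 1, whereas LAG-3-/- replicates 2 and 3 held Y-linked transcripts. LAG-3-/- replicate 2 also held skeletal muscle genes (8 genes, 1207 CPM in sum against 1.20 to 2.70 CPM in the others) and Schwann cell genes (8 genes, 2534 CPM against 475 to 716 CPM). The share of counts from 13 mitochondrial genes was 4.29% to 6.42% in LAG-3+/+ and 7.54% to 13.9% in LAG-3-/- libraries. Fold changes fell with transcript length across the whole table, from a median log2 fold change of 0.70 for genes under 1000 bases to -0.52 for genes of 7000 bases and more. The sex transcripts, the muscle and Schwann cell genes and the length dependence are set beside the results they touch. The mitochondrial share enters only through a fit without these 13 genes.

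Upstream sequence is shown for *Chat* and *Slc18a3*, which share a locus, and for *Prph* and *Mnx1*, which had the highest fold changes. *Slc18a3* (ENSMUSG00000100241, minus strand of chromosome 14 of GRCm39, 32184395 to 32186807) lies inside the annotated span of *Chat* (ENSMUSG00000021919, same strand, 32129369 to 32187946), and their exons share 0 bases. Their RefSeq starts are 1059 bases apart. The sequences are those of RefSeq (GRCm38.p6), each with 1 exact match in GRCm39, and the stretches of *Chat* and *Slc18a3* hold no base of an annotated transcript of the gene itself. For *Prph* and *Mnx1*, of which some annotated transcripts begin further upstream, only 30 bases around the matches are shown. The table held 7 of the 10 genes, and *Nefl*, *Nefm* and *Nefh* were not in it. Capitals mark matches on either strand to the TATA box (searched as TATAAA), the CCAAT box and the GC box (searched as GGGCGG). These motifs do not overlap each other in the stretches below, which read 5′ to 3′ on the gene's strand.
Chat (chr14:32187947-32188116, minus): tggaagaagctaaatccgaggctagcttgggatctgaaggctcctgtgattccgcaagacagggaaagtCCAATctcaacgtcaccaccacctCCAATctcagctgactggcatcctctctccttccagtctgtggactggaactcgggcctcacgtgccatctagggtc
Slc18a3 (chr14:32186808-32187057, minus): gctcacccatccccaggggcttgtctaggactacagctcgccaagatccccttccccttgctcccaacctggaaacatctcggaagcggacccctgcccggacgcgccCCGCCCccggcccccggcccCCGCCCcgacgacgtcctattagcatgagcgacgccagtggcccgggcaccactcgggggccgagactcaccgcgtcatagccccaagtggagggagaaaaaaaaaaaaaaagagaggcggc
Prph (chr15:98953019-98953048, plus): agggcTATAAAgCCGCCCcgcatcggtctg
Mnx1 (chr5:29683614-29683643, minus): gCCAATcccagaCCGCCCtgagcttcaagt

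The 250 bases upstream of the starts differed between the 2 genes of the cholinergic locus. The *Chat* window held 2 CCAAT boxes, 8 CpG dinucleotides and 54.8% G and C, and the *Slc18a3* window held 2 GC boxes, 21 CpG dinucleotides and 66% G and C. The *Prph* window had a TATA box that began 31 bases before the RefSeq start and a GC box. The *Mnx1* window had 3 CCAAT boxes and 1 GC box. Of 32851 windows of this length in the table, 12.4% held TATAAA, 33.8% CCAAT and 32.7% GGGCGG. The homeodomain core TAATTA (4.84% of windows) and TTCAGCACC, the left part of the RE1 element (0.301%), were in none of the 7 windows. A match is a description of the letters and not a site of binding.

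In LAG-3-/- cord, 4 of the 10 genes rose and none fell at an edgeR adjusted p below 0.1. *Prph* rose 2.62-fold, *Mnx1* 2.74-fold, *Slc18a3* 1.78-fold and *Ache* 1.40-fold. *Chat*, *Slc5a7*, *Isl1* and the 3 neurofilament subunits did not pass the test, with fold changes between 1.01 and 1.69. Of all 17702 genes, 23.1% rose and 23.9% fell at the same threshold, so 47.1% passed in one direction or the other and a call for a single gene was common in this comparison. With a log2 fold change above 1 required in addition, *Prph* and *Mnx1* remained, 2 of 10, against 4.37% of all genes higher and 3.15% lower. The median log2 fold change of the 10 genes was 0.38, and that of all genes 0.002.

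**Figure D1:**
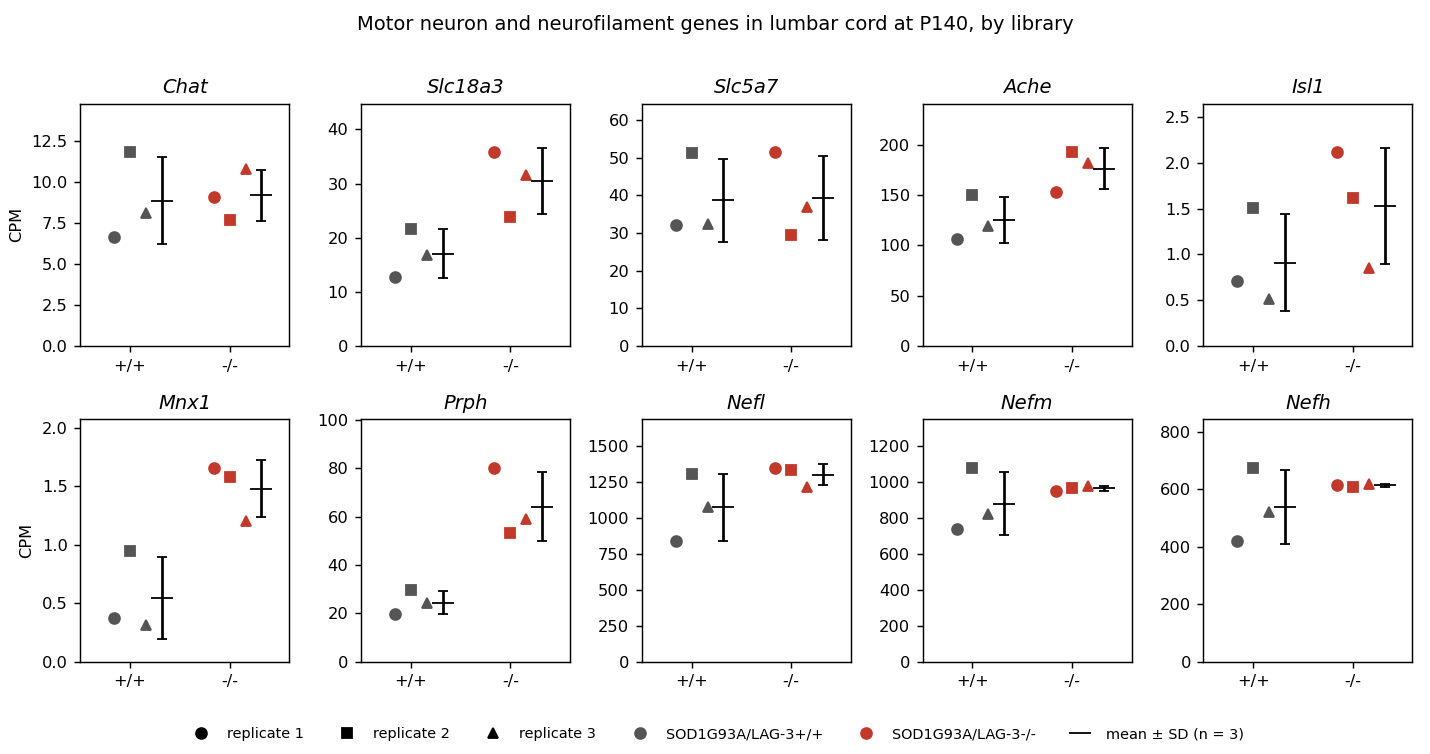
Level of each gene in CPM (y axes, linear, from 0) in each of the 6 libraries, with LAG-3+/+ in grey and LAG-3-/- in red, a marker shape per replicate, and the mean ± SD (n = 3) to the right of each group. All LAG-3-/- libraries lie above all LAG-3+/+ libraries for *Slc18a3*, *Ache*, *Mnx1* and *Prph*, and LAG-3+/+ replicate 2 (grey square) is the highest of its group in every panel. Of all 17702 genes tested, 25.5% had all LAG-3-/- libraries above all LAG-3+/+ libraries and 26.1% had all below.

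*Prph* (ENSMUSG00000023484, plus strand of chromosome 15, 98952872 to 98956862) encodes peripherin, an intermediate filament protein of neurons that send axons to the periphery. Its level was 19.8, 29.5 and 24.1 CPM in LAG-3+/+ replicates 1 to 3 and 80.1, 53.0 and 59.2 CPM in LAG-3-/- replicates 1 to 3. Every LAG-3-/- library lay above every LAG-3+/+ library, and the gap between the groups was wider than the range of the LAG-3+/+ libraries. The means were 24.5 ± 4.82 CPM and 64.1 ± 14.2 CPM (SD, n = 3 each). The log2 fold change was 1.39 (standard error 0.18, edgeR adjusted p = 0.000597). The gene passed the test in 18 of 18 alternative fits, with log2 fold changes of 0.93 to 1.71 and edgeR or DESeq2 adjusted p from 3.98e-25 to 0.00978. The lowest fold change came from offsets fitted for transcript length and GC content, and the highest from adding the sex read from transcripts to the model. The smallest adjusted p was that of the edgeR fit without a count filter, and DESeq2 gave an adjusted p of 1.65e-11. *Prph* was the highest in LAG-3-/- replicate 1, the LAG-3-/- library with *Xist*, and its log2 fold change was 1.51 without LAG-3-/- replicate 2, the library with muscle genes (edgeR adjusted p = 0.00121).

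*Mnx1* (ENSMUSG00000001566, minus strand of chromosome 5, 29678032 to 29683636) encodes the transcription factor HB9, which fixes motor neuron identity during development. It was scarce, with 10, 22 and 8 counts in LAG-3+/+ and 29, 40 and 24 counts in LAG-3-/- libraries. In CPM these were 0.374, 0.946 and 0.312 against 1.66, 1.58 and 1.20. The groups did not overlap, although LAG-3+/+ replicate 2 stood well above the other LAG-3+/+ libraries. The log2 fold change was 1.45 (standard error 0.42, edgeR adjusted p = 0.0181). It stayed between 1.09 and 2.08 in 18 alternative fits and passed the test in 17, the exception being the fit of the libraries listed as male only (edgeR adjusted p = 0.125; the range over alternatives was 0.00338 to 0.125). *Isl1* (ENSMUSG00000042258, minus strand of chromosome 13, 116434817 to 116446235), the partner factor of the same neurons and also of sensory neurons, had 19, 35 and 13 counts in LAG-3+/+ and 37, 41 and 17 counts in LAG-3-/- libraries. Its groups overlapped, since LAG-3-/- replicate 3 at 0.851 CPM was below LAG-3+/+ replicate 2 at 1.51 CPM. The log2 fold change was 0.76 with a 95% confidence interval from -0.23 to 1.74 (edgeR adjusted p = 0.208).

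Of the 4 genes of acetylcholine handling, *Slc18a3* and *Ache* passed the test and *Chat* and *Slc5a7* did not, and with the length and GC offsets none of the 4 passed. *Slc18a3* stood at 12.7, 21.6 and 16.9 CPM in LAG-3+/+ and at 35.8, 23.8 and 31.6 CPM in LAG-3-/- libraries. The groups did not overlap, but LAG-3-/- replicate 2 was only just above LAG-3+/+ replicate 2. The log2 fold change was 0.83 (standard error 0.20, edgeR adjusted p = 0.0108), and the gene passed the test in 16 of 18 alternative fits. It did not pass with the length and GC offsets (0.45, edgeR adjusted p = 0.172) or among the libraries listed as male (0.69, edgeR adjusted p = 0.104), and the adjusted p over all 18 ran from 1.92e-07 to 0.172 by edgeR or DESeq2. Its lowest value came from the edgeR fit without a count filter, as did those of *Prph*, *Mnx1* and *Ache*. *Ache* (ENSMUSG00000023328, plus strand of chromosome 5, 137285781 to 137292728), the enzyme that breaks acetylcholine down, stood at 106, 150.4 and 119 CPM in LAG-3+/+ and at 153, 193 and 182 CPM in LAG-3-/- libraries. Here the lowest LAG-3-/- library exceeded the highest LAG-3+/+ library by less than the spread within either group. The log2 fold change was 0.49 (standard error 0.14, edgeR adjusted p = 0.0199). *Ache* passed in 15 of the 18 fits, with edgeR or DESeq2 adjusted p of 0.00161 to 0.254. It did not pass with the length and GC offsets (0.28, edgeR adjusted p = 0.164), with the sex read from transcripts in the model (0.29, edgeR adjusted p = 0.254) or with libraries scaled to pan-neuronal genes (0.26, edgeR adjusted p = 0.113).

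*Chat* and *Slc5a7* (ENSMUSG00000023945, minus strand of chromosome 17, 54580020 to 54606076) gave no detectable difference. *Chat* was at 6.66, 11.8 and 8.11 CPM in LAG-3+/+ and at 9.10, 7.66 and 10.8 CPM in LAG-3-/- libraries, which interleaved. Its log2 fold change was 0.05 with a 95% confidence interval from -0.43 to 0.53 (edgeR adjusted p = 0.877). *Slc5a7* was at 32.3, 51.4 and 32.5 CPM in LAG-3+/+ and at 51.5, 29.4 and 37.0 CPM in LAG-3-/- libraries, and in both groups 1 library stood apart from the other 2. Its log2 fold change was 0.02 with an interval from -0.57 to 0.61 (edgeR adjusted p = 0.959). Neither gene passed the test in any of 18 alternative fits, in which the sign of both varied. Both intervals include the log2 fold change of *Ache*, 0.49.

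The 3 neurofilament subunits were the most abundant of the 10 genes. *Nefl* (ENSMUSG00000022055, plus strand of chromosome 14, 68321268 to 68326544) was at 841, 1306 and 1077 CPM in LAG-3+/+ and at 1350.2, 1336 and 1218 CPM in LAG-3-/- libraries. *Nefm* (ENSMUSG00000022054, minus strand of chromosome 14, 68320039 to 68362305) was at 737, 1078 and 823 CPM against 950.4, 964 and 978 CPM. *Nefh* (ENSMUSG00000020396, minus strand of chromosome 11, 4888740 to 4898130) was at 420.3, 674 and 521 CPM against 616, 606 and 617 CPM. For each subunit LAG-3+/+ replicate 1 was the lowest of the 6 libraries, and LAG-3+/+ replicate 2 exceeded all LAG-3-/- libraries for *Nefm* and *Nefh*. The LAG-3-/- libraries lay close together, with an SD of 6.32 CPM for *Nefh* against 128 CPM in LAG-3+/+ (n = 3 each), and this difference in spread was not tested. The annotated span of *Nefm* covers *Nefl* on the opposite strand, where 1152 bases are exonic in both. By the study's methods the cord libraries were made with a strand-specific kit, whereas the labels name a kit for sorted cells. The strand setting of the quantification is not given in the sources used here, so some counts of this pair may be divided between them.

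The log2 fold changes were 0.28 for *Nefl* with a 95% confidence interval from -0.09 to 0.64 (edgeR adjusted p = 0.212), 0.13 for *Nefm* with an interval from -0.20 to 0.47 (edgeR adjusted p = 0.523) and 0.19 for *Nefh* with an interval from -0.17 to 0.54 (edgeR adjusted p = 0.391). Summed over the 3 subunits, the level was 1998, 3057 and 2421 CPM in LAG-3+/+ and 2916, 2906 and 2814 CPM in LAG-3-/- libraries. The means of 2492 ± 533 CPM and 2878 ± 56.4 CPM (SD, n = 3 each) differed by 0.23 on the log2 scale (two-sided exact permutation test, p = 0.4, where 0.1 is the smallest p that 3 against 3 libraries allow). Subunit proportions were close in both genotypes. *Nefm* over *Nefl* was 0.822 ± 0.0561 in LAG-3+/+ and 0.743 ± 0.0531 in LAG-3-/- libraries, and *Nefh* over *Nefl* was 0.500 ± 0.0160 and 0.472 ± 0.0302 (SD, n = 3 each, overlapping ranges for both).

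A single library shaped several of these results. LAG-3+/+ replicate 2 was the highest of its group for 10 of the 10 genes, and its summed pan-neuronal level (8766 CPM) was also the highest of the LAG-3+/+ libraries (6619 and 7770 CPM in the others). Without it, 7 of the 10 genes rose and none fell, against 19.2% of all genes higher and 19.7% lower in that fit. Leaving out the LAG-3+/+ library that was highest for each gene raised all 10 log2 fold changes. The count of 7 therefore follows in part from the choice of library. *Isl1* (log2 fold change 1.31, edgeR adjusted p = 0.0502), *Nefl* (0.44, edgeR adjusted p = 0.0690) and *Nefh* (0.38, edgeR adjusted p = 0.0785) passed in this fit alone of 18. Over those fits their edgeR or DESeq2 adjusted p ranged from 0.0502 to 0.824, from 0.0690 to 0.751 and from 0.0785 to 0.875. With the sex read from transcripts as a term of the model, 3 of the 10 passed, *Prph*, *Mnx1* and *Slc18a3*, against 19.1% of all genes higher, but in that fit the genotype difference rests on LAG-3-/- replicate 1 alone, the only LAG-3-/- library with *Xist*. Among the libraries listed as male *Prph* and *Ache* passed, against 15.1% of all genes higher, but there both LAG-3+/+ libraries carried *Xist* and both LAG-3-/- libraries Y-linked transcripts, so that genotype and sex cannot be told apart. Leaving out any other single library, LAG-3-/- replicate 2 with its muscle and Schwann cell genes included, gave 4 calls, *Prph*, *Mnx1*, *Slc18a3* and *Ache*.

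**Figure D2:**
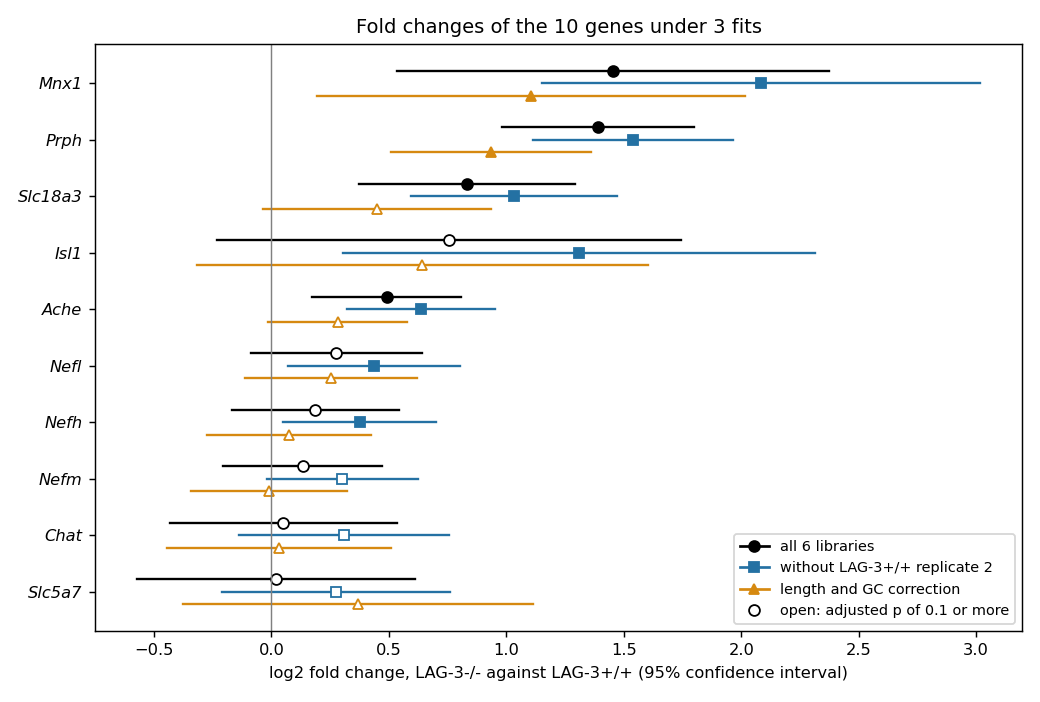
Log2 fold change of each gene between LAG-3-/- and LAG-3+/+ cord (x axis) with its 95% confidence interval, from all 6 libraries (black), without LAG-3+/+ replicate 2 (blue) and with the length and GC offsets (orange); filled symbols have an edgeR adjusted p below 0.1. *Prph* and *Mnx1* are filled in all 3 fits, while *Isl1*, *Nefl* and *Nefh* are filled only without LAG-3+/+ replicate 2.

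The higher fold changes among the 10 genes were those of the shorter transcripts. The 4 genes with transcripts of 2047 to 2526 bases (*Prph*, *Slc18a3*, *Mnx1* and *Isl1*) had log2 fold changes of 0.76 to 1.45, and 3 of them passed the test. The 6 genes with transcripts of 3424 to 5792 bases had log2 fold changes of 0.02 to 0.49, and 1 of them passed. Over all genes the median was 0.24 at 2000 to 3000 bases and 0.03 at 3000 to 4000 bases, with 34.1% and 20.1% of genes called higher. The offsets, fitted per library as smooth functions of both, left *Prph* (log2 fold change 0.93, edgeR adjusted p = 0.00978) and *Mnx1* (1.10, edgeR adjusted p = 0.0816) past the test, 2 of 10 genes, against 15.5% of all genes higher and 13.5% lower in that fit. The cause of the length dependence was not tested.

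**Figure D3:**
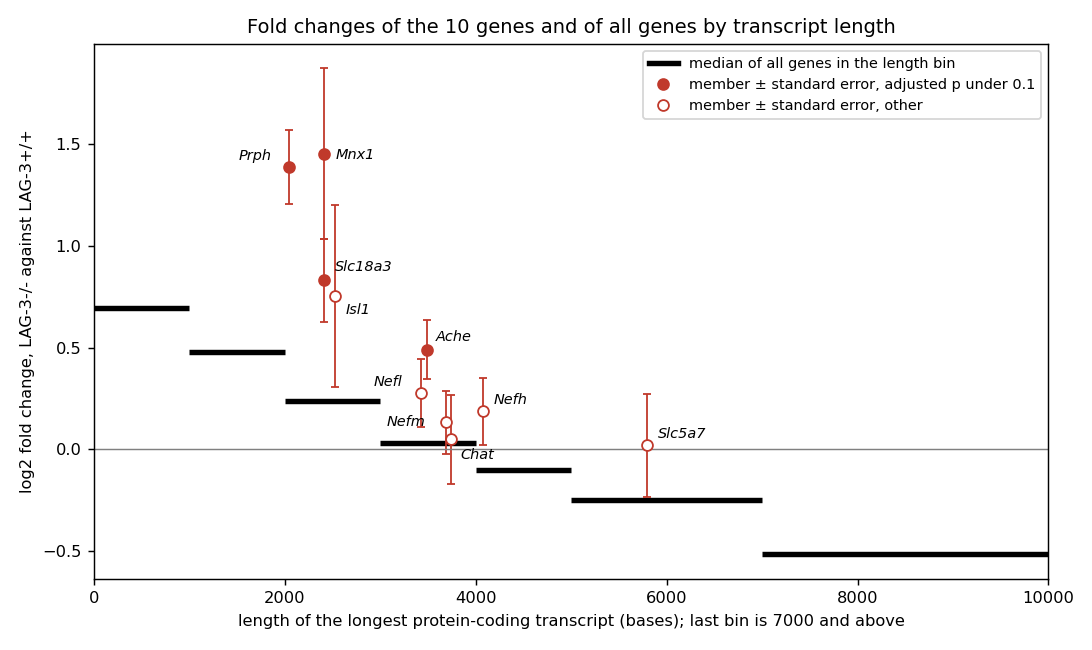
Log2 fold change between LAG-3-/- and LAG-3+/+ cord (y axis) against the length of the longest protein-coding transcript in bases (x axis), for the 10 genes (red, ± standard error, filled where the edgeR adjusted p is below 0.1) and as the median of all tested genes in 7 length bins (black bars). The medians fall from 0.70 to -0.52 with length. *Prph*, *Mnx1*, *Slc18a3* and *Isl1*, at 1.39, 1.45, 0.83 and 0.76, stand above the 0.24 of their bin by more than their standard error, and *Isl1* did not pass the test.

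The direction of *Chat*, *Slc5a7*, *Nefm* and *Nefh*, which had no call, depended on how libraries were scaled. *Isl1* and *Nefl*, also without a call, were above 0 in 18 of 18 alternative fits. All 10 log2 fold changes were above 0 with TMM factors, against 50.1% of all genes, but those of *Chat* and *Slc5a7* were below 0 without TMM factors, and those of *Chat*, *Slc5a7*, *Nefm* and *Nefh* were below 0 when libraries were scaled to the summed counts of 18 pan-neuronal genes. These scalings moved the median of all genes to -0.13 and -0.25. The pan-neuronal genes themselves summed to 6619 to 8766 CPM in LAG-3+/+ and 8803 to 9524 CPM in LAG-3-/- libraries. Ratios within a library do not depend on scaling, but they were not corrected for length and GC content, and 13 were computed. Per 1000 CPM of pan-neuronal transcripts, *Prph* stood at 2.996, 3.36 and 3.10 in LAG-3+/+ and at 9.06, 5.57 and 6.72 in LAG-3-/- libraries. *Slc18a3* per *Chat* stood at 1.91, 1.83 and 2.08 against 3.94, 3.11 and 2.92.

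Both of these ratios kept the genotypes apart, with a difference of 1.15 on the log2 scale for *Prph* and 0.77 for *Slc18a3* per *Chat* (two-sided exact permutation p = 0.1 for each, the smallest possible, and 0.26 after Benjamini-Hochberg adjustment over the 13 ratios). The same held for *Slc18a3*, *Ache* and *Mnx1* per pan-neuronal level, which makes 5 of 13 ratios without overlap. Among single genes, 25.5% had all LAG-3-/- libraries above all LAG-3+/+ libraries and 26.1% had all below. *Nefl* per 1000 CPM of pan-neuronal transcripts was 138 ± 10.97 and 144 ± 7.72, and *Chat* was 1.13 ± 0.188 and 1.02 ± 0.212 (SD, n = 3 each), with overlapping ranges. With the 3 genes that the pan-neuronal list shares with the axon cytoskeleton list left out of the denominator, *Slc18a3* and *Ache* overlapped, leaving 3 ratios without overlap. These ratios set transcripts of unlike length against each other, such as *Slc18a3* at 2413 bases and *Chat* at 3745 bases. With the length and GC offsets the log2 fold changes were 0.45 for *Slc18a3* (edgeR adjusted p = 0.172), 0.03 for *Chat* and 0.93 for *Prph*.

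**Figure D4:**
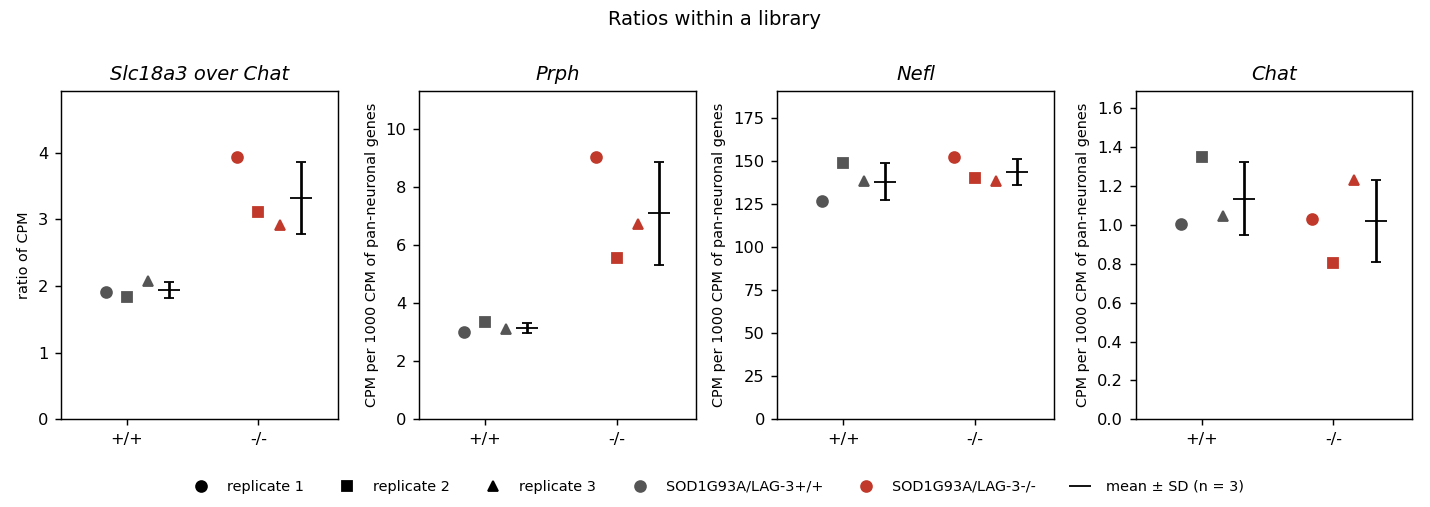
Ratios within each library: *Slc18a3* over *Chat*, and *Prph*, *Nefl* and *Chat* in CPM per 1000 CPM of 18 pan-neuronal genes (y axes, linear, from 0), by genotype, with the mean ± SD (n = 3) beside the libraries. The genotypes separate for *Slc18a3* over *Chat* (1.83 to 2.08 against 2.92 to 3.94) and for *Prph* (2.996 to 3.36 against 5.57 to 9.06) and overlap for *Nefl* and *Chat*.

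Per kilobase of transcript, the level of the 10 genes in LAG-3+/+ cord ran over more than 1000-fold, in the order *Nefl*, *Nefm*, *Nefh*, *Ache*, *Prph*, *Slc18a3*, *Slc5a7*, *Chat*, *Isl1* and *Mnx1*. *Nefl* was at 314 ± 67.9, *Nefm* at 238 ± 48.0 and *Nefh* at 132 ± 31.3 CPM per kilobase (SD, n = 3). *Ache* followed at 35.9 ± 6.51 and *Prph* at 11.95 ± 2.36 CPM per kilobase. *Chat* was at 2.37 ± 0.712, below its locus partner *Slc18a3* at 7.07 ± 1.85, and *Mnx1* was last at 0.226 ± 0.145 CPM per kilobase. The neighbours *Nefl* and *Nefm*, *Slc18a3* and *Slc5a7*, and *Isl1* and *Mnx1* did not differ beyond their SD over libraries. Within each LAG-3+/+ library, however, *Nefl* was above *Nefm* (*Nefm* over *Nefl* in counts 0.877, 0.825 and 0.765) and *Isl1* above *Mnx1*. With exon unions the means of *Nefl* and *Nefm* were 314 and 148 CPM per kilobase. In LAG-3-/- cord *Slc18a3* (12.6 ± 2.53) stood above *Slc5a7* (6.79 ± 1.94 CPM per kilobase) by more than their spread. The order in LAG-3+/+ cord was the same with exon unions in place of the longest transcript.

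Other genes of motor neurons moved in both directions. Of 19 such genes, 7 rose and 5 fell at an edgeR adjusted p below 0.1, with a median log2 fold change of 0.04. Over all genes, 23.1% rose and 23.9% fell, or 15.5% and 13.5% with the length and GC offsets. *Chodl*, a marker of fast motor neurons, stood at 3.07, 3.53 and 3.51 CPM in LAG-3+/+ and 10.1, 10.6 and 8.26 CPM in LAG-3-/- libraries (log2 fold change 1.52, edgeR adjusted p = 0.000282). All LAG-3-/- libraries were above all LAG-3+/+ libraries. *Gfra1*, a receptor for the trophic factor GDNF, fell by 0.60 on the log2 scale, from 146 ± 2.43 to 96.5 ± 1.07 CPM (SD, n = 3 each, edgeR adjusted p = 0.000925). *Esrrg* (log2 fold change -0.82, edgeR adjusted p = 0.00261), a nuclear receptor of gamma motor neurons, and *Bcl6* (-0.59, edgeR adjusted p = 0.00253), a transcriptional repressor, also fell. The remaining rises were in *Isl2*, *Lhx3*, *Mmp9*, *Calca*, *Calcb* and *Slc10a4*, and the remaining falls in *Foxp1* and *Tns1*, which are named here after their values were seen. *Calca*, the gene of calcitonin gene-related peptide, which sensory neurons make too, went from 6.59, 12.5 and 7.26 CPM to 49.0, 30.1 and 24.6 CPM (log2 fold change 1.98, edgeR adjusted p = 0.00606). *Isl2* had 6 to 26 counts per library and *Lhx3* 9 to 31. With the length and GC offsets, 6 of the 19 rose and 3 fell. *Isl2*, *Mmp9*, *Foxp1* and *Tns1* did not pass with them (edgeR adjusted p = 0.210, 0.263, 0.955 and 0.357). *Etv1*, named after its value was seen, rose with them (0.68, edgeR adjusted p = 0.0386).

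Of 21 other cholinergic genes tested, 1 rose and 4 fell, with a median log2 fold change of -0.02. Shares over all genes were 23.1% higher and 23.9% lower, and 15.5% and 13.5% with the length and GC offsets. The counts of this list lay below these shares. *Slc10a4*, a transporter-like protein of cholinergic vesicles that is also in the motor neuron list, rose from 7.73 ± 1.74 to 15.7 ± 3.66 CPM (SD, n = 3 each, log2 fold change 1.02, edgeR adjusted p = 0.00313). The genes that fell without the length and GC offsets were receptors and the second cholinesterase: *Chrna7* (log2 fold change -1.55, edgeR adjusted p = 0.0215), *Chrm2* (-0.54, edgeR adjusted p = 0.0170), *Bche* (-0.44, edgeR adjusted p = 0.0316) and *Chrm5* (-1.34, edgeR adjusted p = 0.0393), the last at 3 to 58 counts per library and named after its value was seen. With the offsets the list gave 2 higher and 2 lower, and *Chrm2* (-0.18, edgeR adjusted p = 0.399) and *Bche* (-0.05, edgeR adjusted p = 0.838) did not pass. Of 8 other intermediate filament genes, *Lmna*, of the nuclear lamina, rose by 0.52 (edgeR adjusted p = 0.00234) and *Vim*, of glia and vessels, fell by 0.43 (log2, edgeR adjusted p = 0.0726). *Gfap*, the astrocyte filament, had a log2 fold change of -0.33 and *Lmnb2*, of the lamina, of 0.18 (edgeR adjusted p = 0.257 and 0.258).

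**Figure D5:**
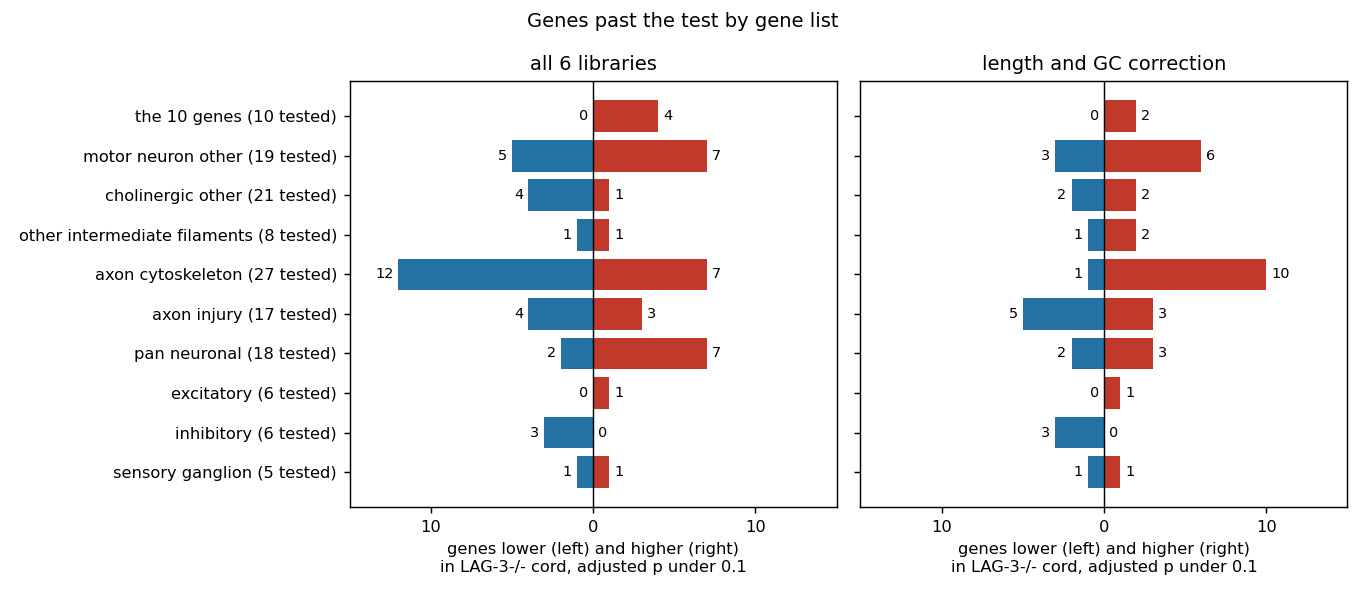
Number of genes lower (blue, left) and higher (red, right) in LAG-3-/- cord at an edgeR adjusted p below 0.1, for the 10 genes and for lists of related genes with the number tested in parentheses, from all 6 libraries (left panel) and with the length and GC offsets (right panel). The 10 genes have 4 higher and 0 lower on the left and 2 and 0 on the right, and the axon cytoskeleton list turns from 7 higher and 12 lower to 10 higher and 1 lower.

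Genes of the axon cytoskeleton (27 genes, median transcript length 7932 bases) gave 7 higher and 12 lower without the length and GC offsets. With the offsets they gave 10 higher and 1 lower. Length and GC content were fitted together, and the part of each in this change was not tested. Over all genes, 23.1% were higher and 23.9% lower without the offsets, and 15.5% and 13.5% with them. *Stmn3*, a microtubule regulator, rose by 1.29 (edgeR adjusted p = 0.000254), *Stmn1* rose by 0.87 (edgeR adjusted p = 0.000551), *Ank3*, the organiser of the axon initial segment, fell by 0.97 (edgeR adjusted p = 0.000305) and *Dst*, a linker of filaments and microtubules, fell by 0.89 (edgeR adjusted p = 0.000805), all as log2 fold changes. With the offsets these were 0.68, 0.64, -0.43 and -0.31, and *Dst* did not pass (edgeR adjusted p = 0.114). Among 17 genes known to respond to axon injury, 3 rose and 4 fell. *Gal* (log2 fold change 0.94, edgeR adjusted p = 0.00215) and *Vip* (1.07, edgeR adjusted p = 0.0107), neuropeptide genes, rose, and *Chl1* (-1.12, edgeR adjusted p = 0.000205) and *Csf1* (-0.54, edgeR adjusted p = 0.0143) fell. *Gal* did not pass with the offsets (0.34, edgeR adjusted p = 0.191), and *Chl1* was at -0.59. *Atf3*, the injury-induced transcription factor, is named here outside the rule of the smallest p. It stood at 10.3 to 25.9 CPM over all libraries (log2 fold change -0.49, edgeR adjusted p = 0.196). With the offsets *Atf3* fell just past the threshold (-0.74, edgeR adjusted p = 0.0989), and the list gave 3 higher and 5 lower.

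Pan-neuronal genes gave 7 higher and 2 lower of 18, where 23.1% of all genes were higher and 23.9% lower. Among them were *Uchl1* (log2 fold change 0.97, edgeR adjusted p = 0.000780), *Tubb3* (0.82, edgeR adjusted p = 0.00182) and *Stmn2* (0.55, edgeR adjusted p = 0.00712) upward and *Map2* downward (-0.65, edgeR adjusted p = 0.00480). Of the 6 genes of glutamatergic neurons, *Tlx3* rose (0.99, edgeR adjusted p = 0.00115) and none fell. Of the 6 genes of GABAergic and glycinergic neurons, none rose and 3 fell, namely *Slc6a5* (-0.84, edgeR adjusted p = 0.00234), *Gad2* (-0.78, edgeR adjusted p = 0.00800) and *Pax2* (-0.61, edgeR adjusted p = 0.0196), and the same number fell with the length and GC offsets. With the offsets 3 pan-neuronal genes were higher and 2 lower, against 15.5% and 13.5% of all genes, and *Map2* did not pass (-0.07, edgeR adjusted p = 0.755).

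Cells other than motor neurons that could hold *Isl1*, *Prph* or the neurofilaments were followed by their markers. Of 10 genes of dorsal root ganglion neurons, *Scn10a* was at 0 in all 6 libraries, and *Scn11a*, *Trpv1*, *Mrgprd* and *Prdm12* had at most 8 counts in any library. The list summed to 23.7 to 31.5 CPM in LAG-3+/+ and 37.8 to 56.1 CPM in LAG-3-/- libraries, mostly through *Tac1*, which cord neurons also express and which rose by 0.86 (edgeR adjusted p = 0.00246). *P2rx3*, at 8 to 33 counts and named after its value was seen, fell (log2 fold change -0.87, edgeR adjusted p = 0.0930). Muscle genes passed the test in 0 of 2 and Schwann cell genes in 2 of 6 tested, against 47.1% of all genes. The 2 were *Mal* (log2 fold change 0.50, edgeR adjusted p = 0.0140), which oligodendrocytes also express, and *Cdh19* (-0.46, edgeR adjusted p = 0.0998). *Cdh19* did not pass with the offsets (-0.19, edgeR adjusted p = 0.428). In LAG-3-/- replicate 2, the library with the high muscle and Schwann cell sums, *Prph* and *Slc18a3* were lowest of their group. *Mnx1* lay between the other LAG-3-/- libraries there, and *Ache* was the highest of its group at 193 CPM. Without that library the log2 fold change of *Ache* was 0.42 (edgeR adjusted p = 0.0786).

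Glial markers had calls in both directions, as did all genes, of which 23.1% rose and 23.9% fell. With the length and GC offsets these shares were 15.5% and 13.5%. Oligodendrocyte genes gave 4 higher and 0 lower of 8 (summed level 10196 to 11361 CPM in LAG-3+/+ and 12512 to 16363 CPM in LAG-3-/- libraries), astrocyte genes 1 higher and 4 lower of 8 (13486 to 15420 against 8493 to 13333 CPM) and microglial genes 1 higher and 3 lower of 12 (1931 to 2604 against 1555 to 2342 CPM). Hox genes with a front edge in brachial or thoracic cord gave 6 higher and 0 lower of 10 (469 to 546 against 672 to 699 CPM), whereas the lumbosacral Hox genes gave 0 of 6. With the length and GC offsets, oligodendrocyte genes gave 2 higher and 0 lower, astrocyte genes 1 higher and 2 lower, microglial genes 0 higher and 5 lower, the brachial and thoracic Hox genes 3 higher and 2 lower and the lumbosacral Hox genes 0 higher and 2 lower. The part of these shifts in the levels of *Prph*, *Mnx1*, *Slc18a3* and *Ache* was not tested.

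The genes whose log2 CPM ran most like *Chat* over the 6 libraries, among those of at least 10 CPM on average, were *Nars2* (Pearson r = 0.992), *G3bp1* (0.973) and *Osbp2* (0.972). For *Nefl* they were *Stip1* (0.998), *Idh3a* (0.994) and *Slc29a2* (0.993). With about 10642 candidates and 6 points that share library depth and composition, values this high are a description only. None of the 6 genes passed the test between genotypes (edgeR adjusted p from 0.255 to 0.918), as *Chat* and *Nefl* did not.

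The series also holds 26 libraries of sorted spinal cord microglia in 2 other tables, normalized apart and, by the study's methods, made with another kit. They are 4 WT, 5 SOD1G93A LAG-3-high and 5 LAG-3-low libraries, and 3 each of SOD1G93A/LAG-3+/+ and SOD1G93A/LAG-3-/- at P120 and at P140. In them the genes other than *Ache* had 0 counts in most libraries. *Slc18a3* had 0 counts in 26 of 26 libraries, which allows at most 0.261 CPM in the shallowest, taking 3 counts as the limit for a count of 0. *Prph* and *Mnx1* had 0 counts in 25 of 26 libraries and 1 count in the other. *Nefl* was at 0 in 22 libraries and reached 43 counts in 1, and *Nefh* was at 0 in 23 and reached 146 counts. *Nefm* was at 0 in 20 libraries and reached 86 counts. *Isl1* was at 0 in 25 libraries and had 26 counts (1.20 CPM) in the other, a LAG-3-low library. *Ache* was detected in all 26, with group means of 3.69 to 8.58 CPM. Counting limits of this kind cover counting error only.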

How the data were processed

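Lumbar spinal cord RNA in 6 libraries (3 SOD1G93A/LAG-3+/+, 3 SOD1G93A/LAG-3-/-) was analysed, with 26 sorted microglia libraries for the levels alone. Per the study's methods, the cord libraries were made from total RNA with a directional kit, whereas the labels name a kit for sorted cells. The authors trimmed reads with Trim Galore 0.6.7, quantified them with Salmon 1.9.0 against GRCm39 and deposited estimated counts per Ensembl gene from tximport (R 4.2.1), not normalized. The annotation release is not given in the sources used here.

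Estimated counts were rounded and analysed in R 4.3.3 with edgeR 4.0.16 (filterByExpr with a minimum count of 10 and total of 15, TMM factors, robust quasi-likelihood F-test, genotype as the only term), with Benjamini-Hochberg adjustment over 17702 genes. CPM are scaled by TMM factors. The common dispersion was 0.0247. The test was an adjusted p under 0.1, and the study's rule adds an absolute log2 fold change above 1. Symbols and coordinates come from GENCODE vM39 (73950 of 74021 identifiers matched). The study's text gives 3 mice per genotype, while the labels only number the libraries; p-values measure the spread between these libraries. Ratios and sums were compared by exact permutation tests. The steps were tested on simulated data.

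The 10 genes and the 16 gene lists were chosen with earlier results of these data known. The genes named are the 10, *Lag3*, up to 4 genes per list with the smallest p at a mean of at least 1 CPM, and 3 genes most like *Chat* and *Nefl* at a mean of at least 10 CPM. Alternatives were DESeq2 1.42.0, other scalings, filters and thresholds, the listed sex, the libraries listed as male, the replicate block, smooth per-library offsets for length and GC content (mgcv 1.9.3), single libraries left out and, chosen after seeing the data, the sex read from transcripts, leaving out mitochondrial genes, and the length and GC correction for the lists.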

Additional observations from a re-analysis of the deposited data

How the results depend on the processing

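*Prph* passed the test in all 18 alternative fits, *Mnx1* in 17, *Slc18a3* in 16 and *Ache* in 15. The count of genes past the test, 8330, moved to 1331 with a log2 fold change above 1 required, to 5486 among the libraries listed as male and to 5136 after the length and GC correction, and that of the 10 genes from 4 to 2 in each of these 3 settings. Leaving out single libraries gave 6385 to 8482 genes and 4 to 7 of the 10 genes, 7 without LAG-3+/+ replicate 2; the summed neurofilament difference then ranged from 0.08 to 0.39 on the log2 scale and the ratios without overlap from 5 to 7. The split of calls was 2928 higher and 5316 lower without TMM factors and 1717 higher and 6037 lower with pan-neuronal scaling, against 4096 and 4234. Ratios without overlap went from 5 to 3 with the smaller pan-neuronal list.

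The replicate numbers did not pair the libraries (correlation of deviations 0.02, 0.01 and -0.03 for equal numbers). With them as a replicate block, 8315 genes, 4 of the 10 genes and 84 list genes passed, and *Slc18a3* had an edgeR adjusted p of 0.0569. DESeq2 gave 7639 genes and the same 4 of the 10. Leaving out the 13 mitochondrial genes gave 8333 genes and again the same 4 of the 10. The cause of the higher mitochondrial share in LAG-3-/- libraries was not tested.

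The log2 fold change turned below 0 for *Chat* without TMM factors (-0.067), with pan-neuronal scaling (-0.16), among libraries listed as male (-0.0029) and without LAG-3+/+ replicate 1 (-0.12), LAG-3+/+ replicate 3 (-0.01) or LAG-3-/- replicate 3 (-0.09), with 0.31 without LAG-3+/+ replicate 2. It turned so for *Slc5a7* without TMM factors (-0.11), with pan-neuronal scaling (-0.19), without a filter (-0.013), with the listed sex (-0.0018), among libraries listed as male (-0.33) and without LAG-3+/+ replicate 1 (-0.10), LAG-3+/+ replicate 3 (-0.09) or LAG-3-/- replicate 1 (-0.22), with 0.27 without LAG-3+/+ replicate 2. It also did for *Nefm* with pan-neuronal scaling (-0.090) and the length and GC correction (-0.012) and for *Nefh* with pan-neuronal scaling (-0.029). None of these genes had passed the test. The cause of these turns was not tested. At 8 to 41 counts per library, counting noise limits *Isl1* and *Mnx1*.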
